A study of Mus musculus with 3 samples.

Results

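The enzymes described here attach a large polar group to drugs, dietary compounds, bile pigments, hormones and reactive lipids, which makes these easier to excrete. They were taken as every gene whose only annotated symbol starts with Ugt1, Ugt2, Ugt3, Gsta, Gstk, Gstm, Gsto, Gstp, Gstt, Gstz, Mgst or Sult, with 1 probe set per gene, and there were 48 of them among 19938 genes. Colon RNA was measured on 3 arrays, 1 for each group of male BALB/c mice aged 10 to 12 weeks. The IL-4Rα-/- colitis array held RNA of 6 mice homozygous for the germline Il4ra tm1Sz deletion, which affects every cell type, that drank 3% dextran sulfate sodium (DSS), which injures the colonic epithelium. The WT colitis array held RNA of 3 wild-type mice given the same 3% DSS, and the WT normal array held RNA of 4 wild-type mice given plain water. All colons were taken on day 7, and WT and IL-4Rα-/- mice were littermates from heterozygous crosses. An IL-4Rα-/- group on water was not analysed here, so the effect of the genotype without DSS is not measured. The pools differed in disease. Body weight was 95.1 to 100.8% of the initial weight in the IL-4Rα-/- colitis pool, 78.0 to 83.8% in the WT colitis pool and 97.6 to 104.0% in the WT normal pool. The disease activity index was 0 to 3 in the IL-4Rα-/- colitis pool, 3 to 4 in the WT colitis pool and 0 in the WT normal pool, and colon length was 8.2 to 11.3 cm in the IL-4Rα-/- colitis pool, 7.8 to 8.2 cm in the WT colitis pool and 10.5 to 12.6 cm in the WT normal pool.

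UDP-glucuronosyltransferases (Ugt) sit in the membrane of the endoplasmic reticulum and add glucuronic acid from UDP-glucuronic acid. Glutathione S-transferases (Gst), mostly soluble, join glutathione to electrophiles, and the microsomal enzymes (Mgst) do so within membranes, where some also reduce lipid peroxides. Cytosolic sulfotransferases (Sult) add sulfate from the donor PAPS. In the intestine these enzymes are best known from epithelial cells, where many are controlled by the transcription factor NRF2, which binds antioxidant response elements, and by xenobiotic receptors such as AHR and PXR.

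Values are log2 signals, so a difference of 1 is 2-fold. There is 1 array of pooled RNA per group, so no difference below has an error or a p-value, and whether it exceeds the spread between mice cannot be told. A signal of 4 was used as the limit above background, because olfactory and vomeronasal receptors, genes of the nose that served as a guide (1210 probe sets), had a median of 2.44 and a 95th percentile of 3.50. Of the 48 enzymes, 27 reached 4 on at least 1 array and 21 stayed between 1.77 and 3.32 on every array. The median of all probe sets was 4.11 on the IL-4Rα-/- colitis array, 4.18 on the WT colitis array and 4.11 on the WT normal array. In the deposited table, 46.9% of all probe sets carried the same value on all 3 arrays. This was true of 33.3% of the 48 enzymes and 45.8% of all genes, and, at a signal of 4 or more, of 7.41% of the 27 enzymes and 31.4% of 11294 genes. Il4ra, the targeted gene, had a signal of 4.76 in IL-4Rα-/- colitis, 6.63 in WT colitis and 5.69 in WT normal, and was lowest on the array labelled with its deletion.

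**Figure D1:**
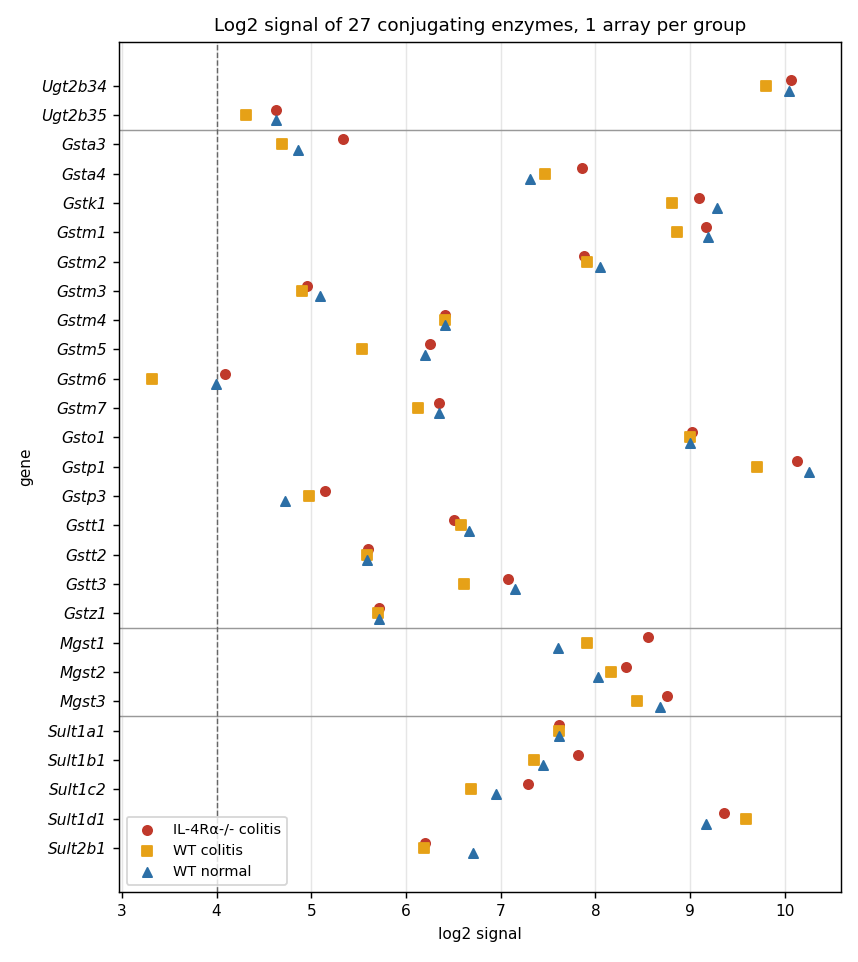
Log2 signal (horizontal axis) of the 27 enzymes at 4 or more on at least 1 array, 1 gene per row, grouped from top to bottom as Ugt2, cytosolic Gst (with Gstk1), Mgst and Sult. Circles stand for the IL-4Rα-/- colitis array, squares for WT colitis and triangles for WT normal, and the dashed line marks a signal of 4. For Gstm5 the square stands apart to the left of the other symbols, and for Mgst1 the circle stands to their right.

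None of the 48 enzymes differed by more than 2-fold between any pair of arrays. Between IL-4Rα-/- colitis and WT colitis, 0.271% of all genes were more than 2-fold higher and 0.908% more than 2-fold lower. Between WT colitis and WT normal these shares were 1.16% and 0.456%, and between IL-4Rα-/- colitis and WT normal they were 0.186% and 0.336%. With so few genes past 2-fold, 0 of 48 enzymes is close to these background shares. What follows therefore describes smaller differences, and the limits of 1.5-fold and 1.2-fold (0.263 on the log2 scale) are given for the 27 enzymes beside the 11294 genes with a signal of 4 or more.

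In IL-4Rα-/- colitis compared with WT colitis, more of the enzymes were higher than lower. Mgst1, Gsta3, Gstm5, Gstm6 and Sult1c2 were more than 1.5-fold higher (5 of 27, against 1.20% of genes), and 0 of 27 were more than 1.5-fold lower, against 5.43% of genes. With 32 added to every signal on the linear scale, which shrinks differences of dim genes most, 0 were past 1.5-fold. Gstm6 reached 4 on the IL-4Rα-/- colitis array alone and so entered the 27 through the group where it was highest. Among genes with a mean of 4 or more over the 3 arrays, a filter added after the values were seen, 4 of 26 enzymes and 1.17% of 11093 genes were more than 1.5-fold higher, and 12 of 26 enzymes and 4.28% of genes more than 1.2-fold. More than 1.2-fold, 13 of 27 were higher and 0 of 27 were lower, where 4.27% of genes were higher and 18.2% were lower. By any amount, 22 were higher, 2 equal and 3 lower, with a median of 0.26 against 0.00 for the genes. The share of genes higher by any amount was 15.9%, but it was 65.5% after quantile normalization, where 26 of 27 enzymes were higher and next to no equal values were left. The share past 1.2-fold moved less, to 6.47% of genes and 15 of 27 enzymes.

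In WT colitis compared with WT normal, more of the enzymes were lower than higher, and both comparisons contain the WT colitis array. The values of Gstm5 and Gstm6 lay past 1.5-fold lower (2 of 27, against 1.88% of genes), but Gstm6 was below 4 on both WT arrays and its fold is not read, which leaves Gstm5 (1 of 26, against 1.80% of genes, with the filter on the mean). None of the 27 was more than 1.5-fold higher, against 6.81% of genes. The count of lower enzymes was 5 after quantile normalization and 0 with 32 added on the linear scale. More than 1.2-fold, 8 of 27 were lower and 2 of 27 were higher, where 5.28% of genes were lower and 20.3% were higher. By any amount, 18 were lower, 4 equal and 5 higher, with a median of -0.17 against 0.00. The share of genes lower by any amount was 16.9%, and it was 64.4% after quantile normalization, with 22 of 27 enzymes lower. Past 1.2-fold, 13 of 27 enzymes and 7.69% of genes were lower after quantile normalization.

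Between IL-4Rα-/- colitis and WT normal the enzymes had a median difference of 0.01, against 0.00 for the genes. Mgst1 was the 1 enzyme of 27 more than 1.5-fold higher, against 1.35% of genes, and 0 of 27 were more than 1.5-fold lower, against 1.34%. More than 1.2-fold, 7 of 27 were higher and 1 of 27 was lower, where the shares of genes were 6.85% and 4.91%. The 1 lower enzyme was Sult2b1.

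**Figure D2:**
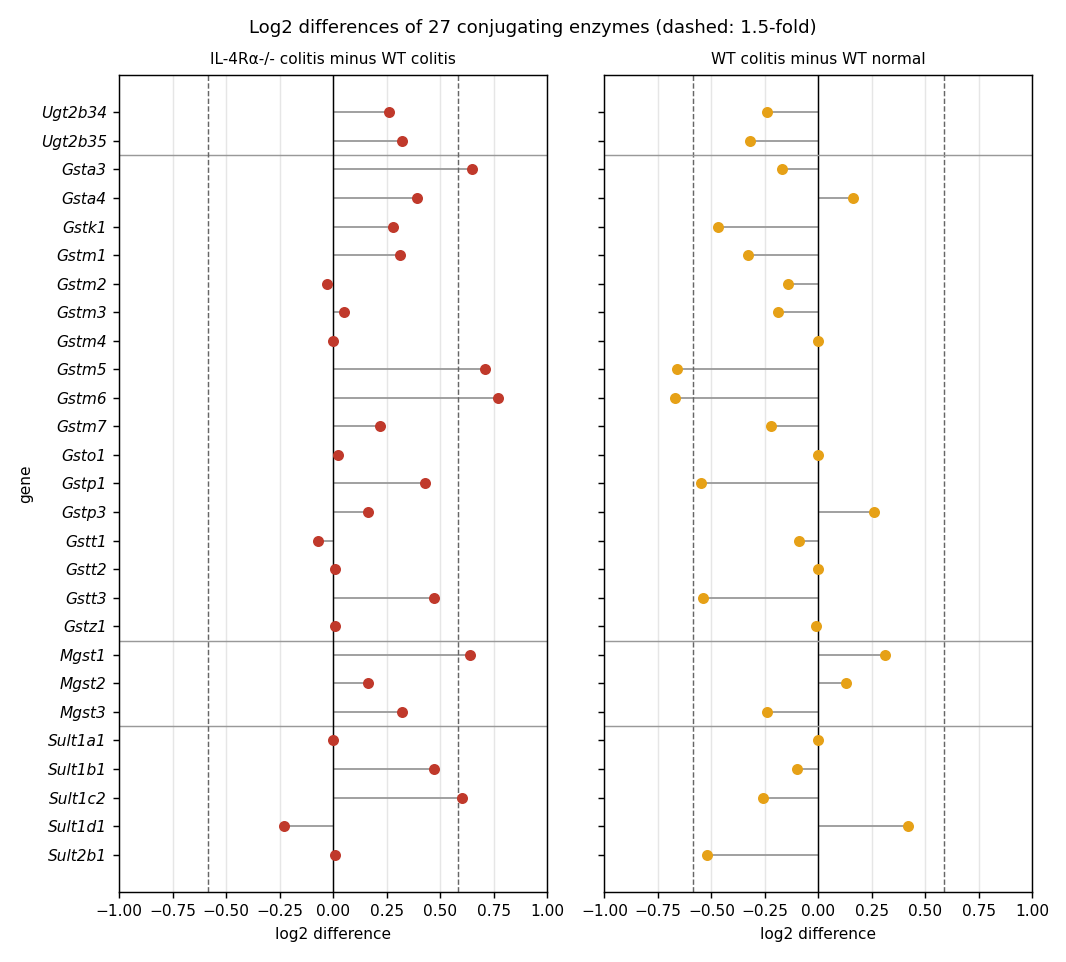
Log2 difference of each of the 27 enzymes in IL-4Rα-/- colitis minus WT colitis (left) and WT colitis minus WT normal (right), each the difference of 2 single arrays. Dashed lines mark 1.5-fold in either direction, passed to the right by 5 genes in the left panel and to the left by 2 genes in the right panel, with the WT colitis array in both panels.

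The promoters of the enzymes past 1.5-fold are shown because NRF2 is a well-known regulator of several genes of these families. The sequences are RefSeq windows on mouse build GRCm38.p6 of 300 bases around a start site. The letters TGACNNNGC, the core of the antioxidant response element, were searched on both strands and are in capitals, with every window written in the direction of its gene. Mgst1 carries them on the opposite strand 56 bases before its start (chr6:138140277-138140576, plus strand), Gsta3 121 bases before (chr1:21240335-21240634, plus strand) and Gstm5 42 bases before (chr3:107895604-107895903, plus strand).
Mgst1: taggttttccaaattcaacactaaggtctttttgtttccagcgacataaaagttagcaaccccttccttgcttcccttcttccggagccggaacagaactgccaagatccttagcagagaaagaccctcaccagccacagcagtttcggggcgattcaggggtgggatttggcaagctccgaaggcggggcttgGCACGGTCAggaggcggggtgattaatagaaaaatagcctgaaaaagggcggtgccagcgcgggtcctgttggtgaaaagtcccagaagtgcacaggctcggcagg
Gsta3: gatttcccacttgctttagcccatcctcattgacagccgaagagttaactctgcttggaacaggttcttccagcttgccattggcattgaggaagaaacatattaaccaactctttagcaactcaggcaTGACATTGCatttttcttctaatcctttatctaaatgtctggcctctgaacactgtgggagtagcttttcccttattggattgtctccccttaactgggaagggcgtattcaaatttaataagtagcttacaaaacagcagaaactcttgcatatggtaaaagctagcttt
Gstm5: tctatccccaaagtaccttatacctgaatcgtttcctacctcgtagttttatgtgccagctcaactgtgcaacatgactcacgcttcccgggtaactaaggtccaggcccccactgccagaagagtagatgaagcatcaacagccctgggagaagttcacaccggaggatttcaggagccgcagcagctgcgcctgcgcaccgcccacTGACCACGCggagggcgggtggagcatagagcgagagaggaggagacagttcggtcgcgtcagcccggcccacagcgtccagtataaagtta
The other window of Mgst1, the 3 windows of Gstm6 and the window of Sult1c2 do not contain these letters. Of the 44 enzymes with a window, 4 held them in at least 1 window (Mgst1, Gsta3, Gstm5 and Gstm7), where 14.0% of 27025 genes did and 12.4% of 32851 windows. GCGTG, the core of the xenobiotic response element read by AHR, was in windows of 8 of the 44 enzymes, Mgst3, Sult1b1, Sult1d1, Sult2b1, Gstm1, Gstm5, Gstp1 and Gstp3, where 35.2% of genes held it. In Gstm5, 1 of its 2 matches to GCGTG, on the opposite strand, overlaps the letters in capitals. A match of letters is a description of the sequence and not a binding site.

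The microsomal enzymes were higher in IL-4Rα-/- colitis than on either WT array. Mgst1, a detoxifying transferase of the endoplasmic reticulum and outer mitochondrial membrane, had a signal of 8.55 in IL-4Rα-/- colitis, 7.91 in WT colitis and 7.60 in WT normal. It was 1.56-fold higher in IL-4Rα-/- colitis than on the WT colitis array and 1.93-fold higher than on the WT normal array, the largest difference of any of the 48 enzymes between any pair of arrays, and 1.24-fold higher in WT colitis than on the WT normal array. All 10 exocrine pancreas markers measured had their highest signal on the WT normal array. Their summed linear signal was 203 in IL-4Rα-/- colitis, 575 in WT colitis and 3760 in WT normal, and without Clps it was 128, 111 and 3050 on the same arrays, so the order of the colitis arrays rested on that 1 marker. The part of these differences in the values of Mgst1 and of the other enzymes was not tested. Mgst2, which can also make leukotriene C4, gave 8.32, 8.16 and 8.03 on the IL-4Rα-/- colitis, WT colitis and WT normal arrays. Mgst3, with glutathione peroxidase activity, gave 8.76, 8.44 and 8.68 on the same arrays. The order of the arrays was thus the same for Mgst1 and Mgst2, while for Mgst3 WT colitis was lowest.

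The alpha-class enzymes act on lipid peroxides and their breakdown products. Gsta3, known in humans for isomerising steroid intermediates, had a signal of 5.34 in IL-4Rα-/- colitis, 4.69 in WT colitis and 4.86 in WT normal, so it was 1.57-fold higher in IL-4Rα-/- colitis than on the WT colitis array and 1.39-fold higher than on the WT normal array. Gsta4, which conjugates 4-hydroxynonenal, gave 7.86, 7.47 and 7.31 on the IL-4Rα-/- colitis, WT colitis and WT normal arrays, a 1.31-fold difference between IL-4Rα-/- colitis and WT colitis and a 1.46-fold difference between IL-4Rα-/- colitis and WT normal. Gsta4 and the other enzymes named below that had neither a difference past 1.5-fold nor one of the 4 highest mean signals of their family were chosen after their values had been seen. Both alpha-class enzymes were thus highest in IL-4Rα-/- colitis, and they differed in which WT array was lower.

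Gsta1 and Gsta2 have no probe set of their own here, because 4 probe sets are annotated to both together with Gm10639 and Gm3776, so they are not among the 48. Except for a tie between the WT arrays in the third, these probe sets had the order of arrays of Gsta4. The first gave 6.53 in IL-4Rα-/- colitis, 6.13 in WT colitis and 5.70 in WT normal, and the second 6.49, 6.09 and 5.63 on the same arrays. The third gave 5.90, 5.63 and 5.63, and the fourth 5.98, 5.59 and 5.43, so all 4 were highest in IL-4Rα-/- colitis. The 4 probe sets share their annotation and are not independent measurements, and which of the 4 genes their signal came from cannot be told.

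**Figure D3:**
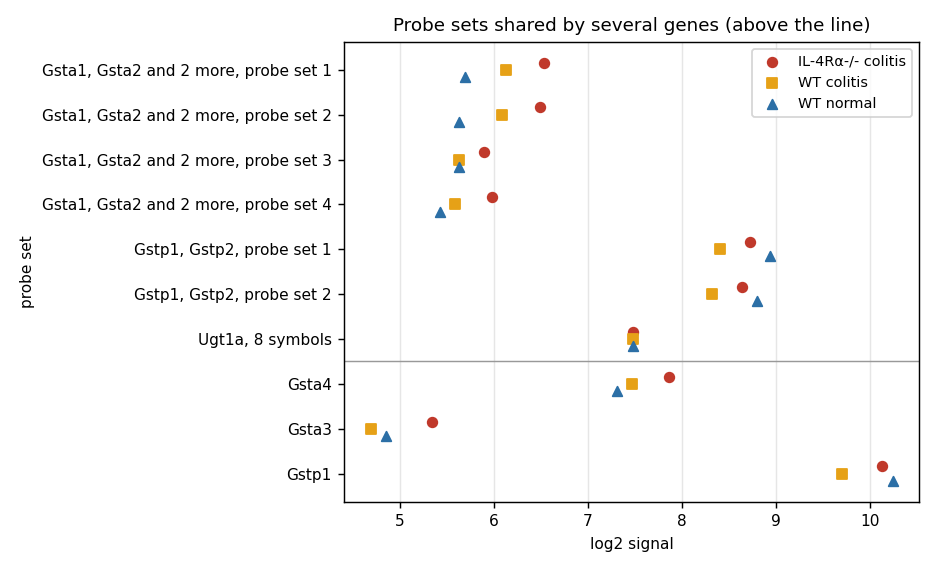
Log2 signal of the 7 probe sets at 4 or more on at least 1 array that are annotated to several genes of these families (above the line) and, below the line, of Gsta4, Gsta3 and Gstp1. Circles stand for IL-4Rα-/- colitis, squares for WT colitis and triangles for WT normal. In the 4 Gsta1 and Gsta2 probe sets the circle is furthest to the right, and in both Gstp1 and Gstp2 probe sets the square is furthest to the left.

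The mu class was lower in WT colitis than on the WT normal array in 6 of its 7 members, with a median of -0.22. Of genes at 4 or more, 16.9% were lower. In IL-4Rα-/- colitis, 5 of 7 were higher than on the WT colitis array, with a median of 0.22, where 15.9% of genes were. Both counts and medians include Gstm6, which reached 4 only on the IL-4Rα-/- colitis array, where it was highest. Quantile normalization and centring each array on its median made both counts 7 of 7, since Gstm4, equal on all 3 arrays at 6.41, and Gstm2 then moved with the rest. After quantile normalization, 64.4% of genes were lower in WT colitis than WT normal, and 65.5% higher in IL-4Rα-/- colitis than WT colitis. After centring these shares were 61.2% and 62.5%, so most genes went the same way. Gstm5, a transferase otherwise known from brain and testis, had a signal of 6.25 in IL-4Rα-/- colitis, 5.54 in WT colitis and 6.20 in WT normal. It was 1.64-fold higher in IL-4Rα-/- colitis than on the WT colitis array and 1.58-fold lower in WT colitis than on the WT normal array. Gstm6 gave 4.09 in IL-4Rα-/- colitis, 3.32 in WT colitis and 3.99 in WT normal, at the edge of background. It was at least 1.71-fold higher in IL-4Rα-/- colitis than on the WT colitis array, and between the WT arrays, with both signals below 4, no fold is given.

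Gstm1, the main mu-class enzyme of mouse liver, had a signal of 9.17 in IL-4Rα-/- colitis, 8.86 in WT colitis and 9.19 in WT normal, a 1.24-fold difference between IL-4Rα-/- colitis and WT colitis. Gstm7 gave 6.35, 6.13 and 6.35, and Gstm3 gave 4.95, 4.90 and 5.09 on the IL-4Rα-/- colitis, WT colitis and WT normal arrays. A second probe set of Gstm3 gave 4.94, 4.95 and 5.01, and differences of this size went in opposite directions between the probe sets for IL-4Rα-/- colitis minus WT colitis (0.05 and -0.01). Gstm2 had a signal of 7.88 in IL-4Rα-/- colitis, 7.91 in WT colitis and 8.05 in WT normal. For Gstm1, Gstm5 and Gstm7, WT colitis was the lowest array by 0.22 or more. WT colitis was also the lowest array for Gstm6, but both of its WT signals were below 4. Mu-class genes lie close together on chromosome 3 and are alike in sequence, so signal from 1 gene at another's probe set cannot be told apart from its own.

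Gstp1, a pi-class enzyme, gave 10.13 in IL-4Rα-/- colitis, 9.70 in WT colitis and 10.25 in WT normal. It was 1.35-fold higher in IL-4Rα-/- colitis than on the WT colitis array and 1.46-fold lower in WT colitis than on the WT normal array. The 2 probe sets annotated to both Gstp1 and Gstp2 had the same order of arrays, with 8.73, 8.41 and 8.94 for the first and 8.64, 8.32 and 8.80 for the second in IL-4Rα-/- colitis, WT colitis and WT normal. Gstp3 had another order, with 5.14 in IL-4Rα-/- colitis, 4.98 in WT colitis and 4.72 in WT normal. It was 1.34-fold higher in IL-4Rα-/- colitis than on the WT normal array, where Gstp1 was 1.09-fold lower.

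Gstk1, the kappa-class enzyme of mitochondria and peroxisomes, had a signal of 9.09 in IL-4Rα-/- colitis, 8.81 in WT colitis and 9.28 in WT normal, 1.39-fold lower in WT colitis than on the WT normal array. Gstt3, of the theta class, gave 7.08, 6.61 and 7.15 on the IL-4Rα-/- colitis, WT colitis and WT normal arrays, 1.39-fold higher in IL-4Rα-/- colitis than on the WT colitis array. WT colitis was the lowest array for both. Its relatives Gstt1 (6.51, 6.58 and 6.67) and Gstt2 (5.60, 5.59 and 5.59) differed by 0.16 at most between any pair of arrays. Gsto1, an omega-class enzyme that reduces dehydroascorbate and methylated arsenic, gave 9.02, 9.00 and 9.00. Gstz1, which isomerises maleylacetoacetate in tyrosine breakdown, gave 5.71, 5.70 and 5.71. Gstt1, Gstt2, Gsto1 and Gstz1 were therefore nearly the same on all arrays. The group called cytosolic Gst here was taken as every Gst gene outside Mgst, so it includes Gstk1. Over its 17 genes at 4 or more, Gstm6 among them, the median was 0.22 for IL-4Rα-/- colitis minus WT colitis (14 higher, 1 equal, 2 lower) and -0.17 for WT colitis minus WT normal (2 higher, 3 equal, 12 lower). Of all genes at 4 or more, 15.9% were higher in the first comparison and 16.9% lower in the second. The 2 enzymes lower in the first, Gstm2 (-0.03) and Gstt1 (-0.07), both turned higher after quantile normalization, and Gstm2 did so after centring. Of all genes at 4 or more, 65.5% were higher there after quantile normalization and 62.5% after centring.

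The sulfotransferases did not share 1 pattern. Sult1c2, which acts on phenols and hydroxylated aromatic amines, had a signal of 7.29 in IL-4Rα-/- colitis, 6.69 in WT colitis and 6.95 in WT normal, and was 1.52-fold higher in IL-4Rα-/- colitis than on the WT colitis array. Sult1b1, which sulfates thyroid hormones and phenols in the gut, gave 7.82, 7.35 and 7.45 on the IL-4Rα-/- colitis, WT colitis and WT normal arrays, 1.39-fold higher in IL-4Rα-/- colitis than on the WT colitis array. Both had their highest signal in IL-4Rα-/- colitis and their lowest in WT colitis.

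Sult1d1, which sulfates catecholamines and some eicosanoid metabolites in mice, went the other way between these arrays, with 9.36 in IL-4Rα-/- colitis, 9.59 in WT colitis and 9.17 in WT normal. It was the 1 enzyme of the 27 with its highest signal in WT colitis, 1.34-fold above WT normal, and IL-4Rα-/- colitis was 1.17-fold below WT colitis. Sult2b1, the cholesterol and hydroxysteroid sulfotransferase of barrier epithelia, gave 6.20 in IL-4Rα-/- colitis, 6.19 in WT colitis and 6.71 in WT normal. It was thus lower on both colitis arrays, 1.42-fold in IL-4Rα-/- colitis and 1.43-fold in WT colitis compared with WT normal. Sult1a1, the general phenol sulfotransferase, was listed at 7.62 on all 3 arrays. Over these 5 enzymes the median was 0.01 for IL-4Rα-/- colitis minus WT colitis and -0.10 for WT colitis minus WT normal.

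Of the glucuronosyltransferases, 2 with a probe set of their own reached 4. Ugt2b34, a Ugt2 enzyme of mice, had a signal of 10.06 in IL-4Rα-/- colitis, 9.80 in WT colitis and 10.04 in WT normal, 1.20-fold higher in IL-4Rα-/- colitis than on the WT colitis array. Ugt2b35 gave 4.63, 4.31 and 4.63 on the IL-4Rα-/- colitis, WT colitis and WT normal arrays, a 1.25-fold difference. In both, WT colitis was lowest and the other arrays differed by 0.02 or less. Ugt2b38 was below 4 with 3.32 in IL-4Rα-/- colitis, 3.06 in WT colitis and 3.32 in WT normal, and Ugt2b36 was at 3.12 on all 3 arrays. The Ugt1a genes, whose transcripts share all exons but the first and which glucuronidate bilirubin and many phenols, have 1 probe set for 8 symbols here. It was listed at 7.48 on all 3 arrays, so neither a difference nor a single Ugt1a enzyme can be read from it. Ugt3a1 (2.38, 2.38 and 2.30) and Ugt3a2 (2.30, 2.30 and 2.27), which use other sugar donors, were at background.

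The 21 enzymes below 4 on every array differed by 0.26 at most, and 14 of them were listed with equal values on all 3 arrays. They include Gsto2 at 2.72, Gstt4 at 2.35, the estrogen sulfotransferase Sult1e1 at 2.04 and the liver hydroxysteroid sulfotransferases Sult2a3, Sult2a6 and Sult2a8 between 1.98 and 2.20. Sult6b1 and Sult6b2 had identical values, 2.01, 2.09 and 2.01 on the IL-4Rα-/- colitis, WT colitis and WT normal arrays. For these genes the signal does not separate low RNA from none. Of 11 hepatocyte markers, 3 (Tat, Ttr and Apob) reached 4 on at least 1 array, and the defining marker Alb was at 2.89 on every array. Their summed linear signal was 323 in IL-4Rα-/- colitis, 247 in WT colitis and 258 in WT normal, with Tat, an enzyme of tyrosine breakdown, at 7.53, 6.81 and 6.71 on the same arrays. The part of these differences in the values of the conjugating enzymes was not tested.

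The genes that supply the donors and remove the products are given for comparison, from lists of known pathway members. Per comparison and direction, 1.20 to 6.81% of genes at 4 or more passed 1.5-fold. Counts of 0 in lists this short, here and below, are close to those shares. In the supply of UDP-glucuronic acid, 0 of 5 genes were past 1.5-fold in any comparison, and Ugdh, which makes the donor, was at 9.96 on every array. In sulfate and PAPS supply, 0 of 8 were past 1.5-fold, with medians of 0.07 for IL-4Rα-/- colitis minus WT colitis and -0.04 for WT colitis minus WT normal. The sulfate transporter Slc26a2 came closest, with 9.65 in IL-4Rα-/- colitis, 9.08 in WT colitis and 9.50 in WT normal. It had the order of Sult1b1 and Sult1c2, lowest in WT colitis.

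Of 14 genes of glutathione synthesis and recycling, 3 were more than 1.5-fold lower in IL-4Rα-/- colitis than on the WT colitis array and 0 were higher, where 5.43% and 1.20% of genes at 4 or more were, with a median of -0.02. Slc7a11, the cystine carrier, had a signal of 3.89 in IL-4Rα-/- colitis, 4.85 in WT colitis and 3.72 in WT normal, at least 2.19-fold higher in WT colitis than on the WT normal array. Dpep1, a dipeptidase that splits cysteinylglycine, gave 7.78 in IL-4Rα-/- colitis, 8.58 in WT colitis and 9.01 in WT normal, 2.35-fold lower in IL-4Rα-/- colitis than on the WT normal array. The rate-limiting ligase subunits Gclc (7.78, 7.82 and 7.75) and Gclm (8.53, 8.59 and 8.29) differed by 0.30 at most. Of 9 conjugate exporters 0 were past 1.5-fold, with a median of 0.00 in each comparison. The basolateral exporter Abcc3 gave 8.15 in IL-4Rα-/- colitis, 7.68 in WT colitis and 8.07 in WT normal. Abcc5 had the opposite order, with 4.46, 4.83 and 4.34 on the same arrays. The 4 genes measured from a list around conjugate cleavage, Gusb, Arsa, Arsb and Sumf1, had equal values on all 3 arrays, and Sts was not measured.

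The 19 measured genes of the NRF2 list (NRF2 itself, its inhibitor KEAP1 and known targets) had medians of -0.04 for IL-4Rα-/- colitis minus WT colitis and 0.04 for WT colitis minus WT normal. Between WT colitis and WT normal, Hmox1 (heme breakdown), Me1 (NADPH supply) and Slc7a11 were more than 2-fold higher (3 of 19, against 1.16% of all genes) and Osgin1 was more than 2-fold lower (1 of 19, against 0.456%). Hmox1 had 5.14 in IL-4Rα-/- colitis, 6.14 in WT colitis and 4.99 in WT normal, and Me1 had 6.12, 6.68 and 5.66 on the same arrays. Their highest array was WT colitis, which follows in part from naming genes past 2-fold higher there than in WT normal. Others of the list had another order, with Txnrd1 at 7.07, 6.85 and 6.85 and Osgin1 at 5.41, 5.19 and 6.28 on the same arrays. Whether the enzymes follow NRF2 was not tested. Nqo1, a quinone reductase often read as an NRF2 target, gave 5.70 in IL-4Rα-/- colitis, 5.34 in WT colitis and 5.38 in WT normal. Of 18 xenobiotic and lipid receptors 0 were past 1.5-fold, among them Ahr (6.26, 6.54 and 6.26) and Nr1i2, which encodes PXR (6.80, 6.48 and 6.73). Of 19 other conjugating enzymes, the prostaglandin E synthase Ptges, a relative of Mgst1, was the 1 gene past 2-fold, with 6.00 in IL-4Rα-/- colitis, 7.02 in WT colitis and 5.89 in WT normal.

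**Figure D4:**
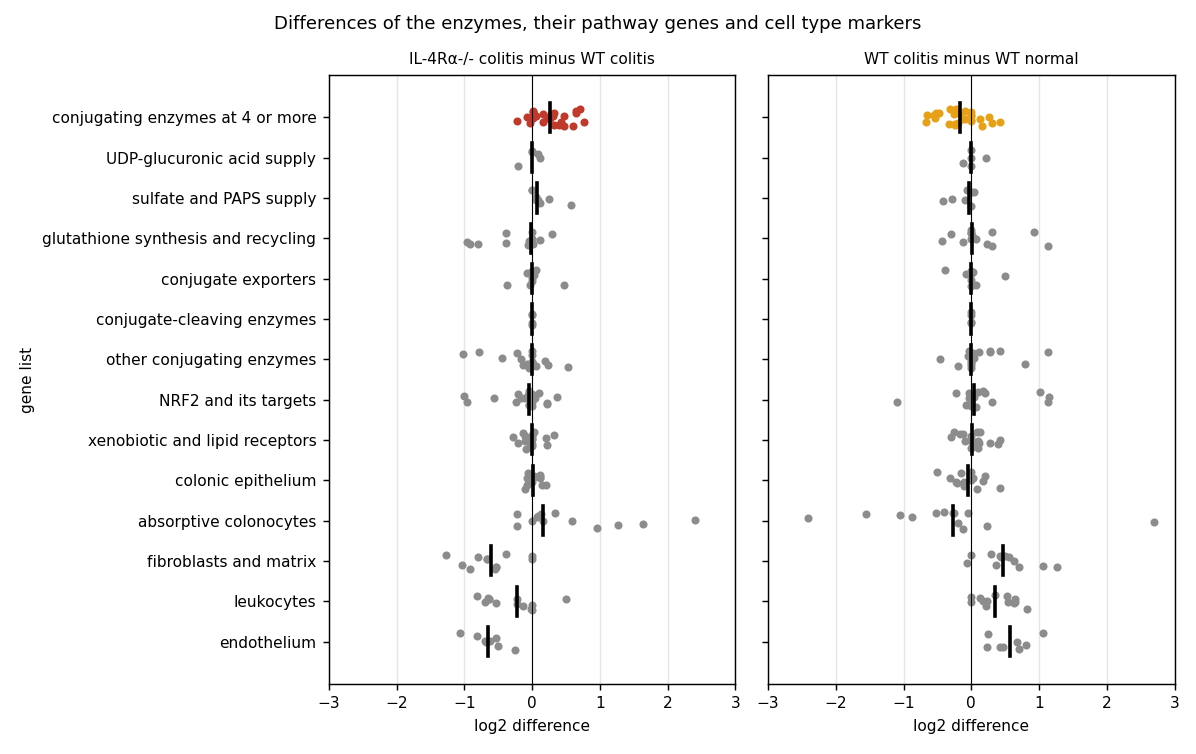
Log2 differences of single genes (points) and their median (vertical bars) for the 27 enzymes (top row), 8 lists of pathway genes and 5 lists of cell type markers, in IL-4Rα-/- colitis minus WT colitis (left) and WT colitis minus WT normal (right). The median of the enzymes was 0.26 on the left and -0.17 on the right, and those of fibroblast and matrix markers were -0.60 and 0.47.

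In bulk RNA, fewer cells of a type and less RNA per cell cannot be told apart, and the makeup of the samples differed between the arrays. Of 14 epithelial markers 0 were past 1.5-fold in any comparison, close to the 1.20 to 6.81% of genes per comparison and direction. Their summed linear signal was 19200 in IL-4Rα-/- colitis, 19100 in WT colitis and 20200 in WT normal. That of 13 absorptive colonocyte markers was 22500, 19300 and 22600 on the same arrays, of which 5 of 13 exceeded WT colitis by over 1.5-fold in IL-4Rα-/- colitis and 0 were lower by that much, where 1.20% and 5.43% of genes were. Between WT colitis and WT normal, 4 of 13 were more than 1.5-fold lower and 1 was higher, where 1.88% and 6.81% of genes were. The 1 higher was Clca4b, with 9.82 in IL-4Rα-/- colitis, 9.23 in WT colitis and 6.54 in WT normal, and it was also among the 5. The summed linear signal of 12 fibroblast and matrix markers was 3660 in IL-4Rα-/- colitis, 6580 in WT colitis and 4050 in WT normal, that of 13 leukocyte markers 1610, 2280 and 1630, and that of 8 endothelial markers 430, 689 and 454. The WT colitis array thus had the lowest sum for absorptive colonocytes and the highest for these 3 lists. Other lists had another order, with 24000 in IL-4Rα-/- colitis, 28400 in WT colitis and 30100 in WT normal for 8 goblet cell markers, and 8350, 9300 and 9920 for 11 smooth muscle markers. In both of these sums IL-4Rα-/- colitis was lowest and WT normal highest, but not every marker had this order. The smooth muscle marker Cald1 had 7.51 in IL-4Rα-/- colitis, 8.52 in WT colitis and 7.51 in WT normal. The goblet cell marker Agr2 had 12.07, 11.83 and 12.07 on the same arrays. The part of the differences in cell type markers in the values of the enzymes was not tested.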

How the data were processed

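RNA of the distal colon was pooled from 6 IL-4Rα-/- colitis, 3 WT colitis and 4 WT normal mice, and each pool was put on 1 GeneChip Mouse Gene 1.0 ST array. The authors deposited log2 signals for 28944 probe sets. How probes were combined and arrays scaled is not stated in the sources used here. The log2 values lie on a positive scale without centring, and the labels describe a Cy3 labelling of another array maker, which was not resolved. Precision is limited by the 3 arrays, and no depth applies.

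Symbols came from the platform annotation: 21789 probe sets had 1 symbol, 1621 had several and 5534 had none. A gene was read from its probe set with the highest mean over the 3 arrays. All 48 enzymes matched RefSeq by gene number, with 0 changed symbols. Of the probe sets with several symbols, 12 held an enzyme of these families, and those are described apart. Log2 differences, medians and counts past 2-fold, 1.5-fold and 1.2-fold were computed, and with 1 array per group no test was run. A fold is given as a lower bound where 1 signal was below 4, and not at all where both were.

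The enzymes and the gene lists were chosen with earlier results of these data known. Enzymes were named by rule if they reached 4 and passed 1.5-fold in any comparison (5 genes) or were among the 4 with the highest mean signal of their family, 20 genes in all. From other lists, genes past 2-fold were to be named. This was done for the pathway lists, but most cell type markers past 2-fold are not named, so an unnamed marker can have passed 2-fold. Others named were chosen after their values had been seen, as were the limit of 1.2-fold and the counts past 1.5-fold and by any amount as results with alternatives. Alternatives were quantile normalization, centring on array medians, an offset of 32 on the linear scale, 2 filters on dim genes, another on the mean signal added after the values had been seen, the mean over a gene's probe sets and current symbols. The counting was tested on simulated data. Planned protein sequences are not shown. Python 3.11.15, numpy 2.4.6, pandas 2.3.3 and matplotlib 3.10.9 were used.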

Additional observations from a re-analysis of the deposited data

Results flagged for a closer look

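Of the probe sets outside the 48 enzymes, those annotated to Gsta1, Gsta2, Gm10639 and Gm3776 together had signals in IL-4Rα-/- colitis above WT normal. The first was 0.83 higher and the second 0.86 higher in IL-4Rα-/- colitis than on the WT normal array on the log2 scale, with 6.53 and 6.49 in IL-4Rα-/- colitis against 5.70 and 5.63 in WT normal. These belong to no comparison of single genes, because 4 genes share the probe sets.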

How the results depend on the processing

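With 1 array per group no replicate could be left out, and no paired analysis was possible because each group has 1 pooled array. No difference of a named enzyme past 1.5-fold changed sign, and no enzyme passed 2-fold, under any alternative run. Of the summary values, 182 stayed within 1.5 times or within the spread of unequal genes and 16 moved, and of the values of named enzymes 154 stayed and 6 moved, each of these 6 with the offset. Not all of these values could move. Current symbols changed no enzyme, and the mean over probe sets altered Gstm3 alone, which was not named by rule. Leaving out genes below 4 cannot change the counts past a fold. The numbers that stayed therefore overstate how stable the values are. For WT colitis minus WT normal, the enzymes more than 1.5-fold lower numbered 5 after quantile normalization, 5 after centring, 0 with the offset of 32 and 1 with genes below the median of all probe sets left out, against 2. Those more than 1.2-fold lower numbered 13 after quantile normalization, against 8, and those more than 1.2-fold higher numbered 1 after quantile normalization and 1 after centring, against 2. For IL-4Rα-/- colitis minus WT colitis, the enzymes more than 1.5-fold higher numbered 0 with the offset, against 5, and those lower by any amount numbered 1 after quantile normalization and 1 after centring, against 3. The median over all 48 was 0.00, and it was 0.24 with genes below the median of all probe sets left out, 0.24 with genes of a mean below 4 left out and 0.26 with genes below 4 left out. For IL-4Rα-/- colitis minus WT normal, those lower by any amount numbered 13 after quantile normalization, against 8, and those more than 1.2-fold higher numbered 4 with the offset, against 7. With genes kept by their mean over the 3 arrays, 1 enzyme was more than 1.5-fold lower in WT colitis than on the WT normal array, and no other count of enzymes past a fold moved by over 1.5 times. The offset shrinks differences of dim genes by construction, and the filters leave fewer genes. The cause of the other shifts was not tested. Quantile normalization turned Gstt2 in IL-4Rα-/- colitis minus WT normal to -0.01, against 0.01. The number of arrays limits every value.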
